A study of Homo sapiens with 6 samples.

Results

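In OVCAR3 cells, a line from a high-grade serous ovarian adenocarcinoma, 35 named genes were at least 8-fold lower after 6 h of THZ531 than after DMSO. They were selected on the readout itself: a gene was taken when it had a symbol, a mean of at least 100 normalized reads in DMSO, and a DMSO mean + 1 of at least 8 times the THZ531 mean + 1. Of the 11988 named loci with that DMSO level, 42 met the ratio (0.35%), and 35 were kept after leaving out 7 symbols, namely 5 that start with ZNF, PAX8 and E2F5. The values that chose these genes are therefore given as a description, with no test.

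The data are polyA RNA-seq of 3 libraries of cells given DMSO, the solvent, and 3 libraries of cells given 200 nM THZ531, both for 6 h. THZ531 binds the kinases CDK12 and CDK13 covalently and blocks them. The sample titles, descriptions and treatment fields name THZ531, whereas the treatment protocol names THZ1, and the name THZ531 is used here. Nothing in the labels says whether the libraries of a group came from separate cultures, so the spread between them may be technical.

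CDK12 and CDK13 phosphorylate the C-terminal tail of RNA polymerase II and help it to elongate through the gene body. When they are inhibited, long genes are known to be affected, and transcripts can end early at polyadenylation sites inside introns. The polyA signal AATAAA marks where the cleavage machinery can end a transcript.

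The reads assigned to genes ran from 53054048 to 70986130 per library. Across the 15278 named loci that were expressed (10 or more normalized reads in 3 or more libraries), 23.7% were called decreased and 13.3% increased in THZ531, where a call by limma asks for a change of 1.5-fold or more together with p no higher than 0.05 before adjustment. The median log2 fold change of these loci was −0.02. All 9 markers of serous ovarian epithelium were present, with summed levels of 436033 to 446769 in DMSO and 555234 to 567623 in THZ531, most of it from KRT7, KRT8 and KRT18. Of the 9, 4 had a lower mean in THZ531: PAX8 (11272 in DMSO and 1241 in THZ531), MUC16 (4598 and 3334), WT1 (650.3 and 579) and ESR1 (59.4 and 56.4). Leukocyte markers summed to 140 to 172 in DMSO and 138 to 158 in THZ531, with CD3E at 0, fibroblast markers to 1715 to 2060 and 3267 to 3673, and endothelial markers to 162 to 199 and 213 to 299. The part of these markers in the results was not tested. In bulk RNA, fewer cells of a kind and less RNA per cell cannot be told apart.

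The 35 genes retained 3.18% to 12.45% of their DMSO level, with a median of 9.68%, both means taken + 1 here and in every fold. Their DMSO means ran from 103 to 2706 normalized reads with a median of 326, and their THZ531 means from 3.95 to 262 with a median of 31.5. In all 35 genes the lowest DMSO library was above the highest THZ531 library, and in 34 it was at least 5 times as high. The selection largely fixes both counts, so they are no result about these genes. The fold was over 16 in 8 genes and between 8 and 10 in 16 genes. The spread was wider in THZ531, where the coefficient of variation had a median of 25.7%, than in DMSO, where it was 7.15%. A gene had a median of 26 reads in a THZ531 library and as few as 2, and the part of this in the spread was not tested.

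**Figure D1:**
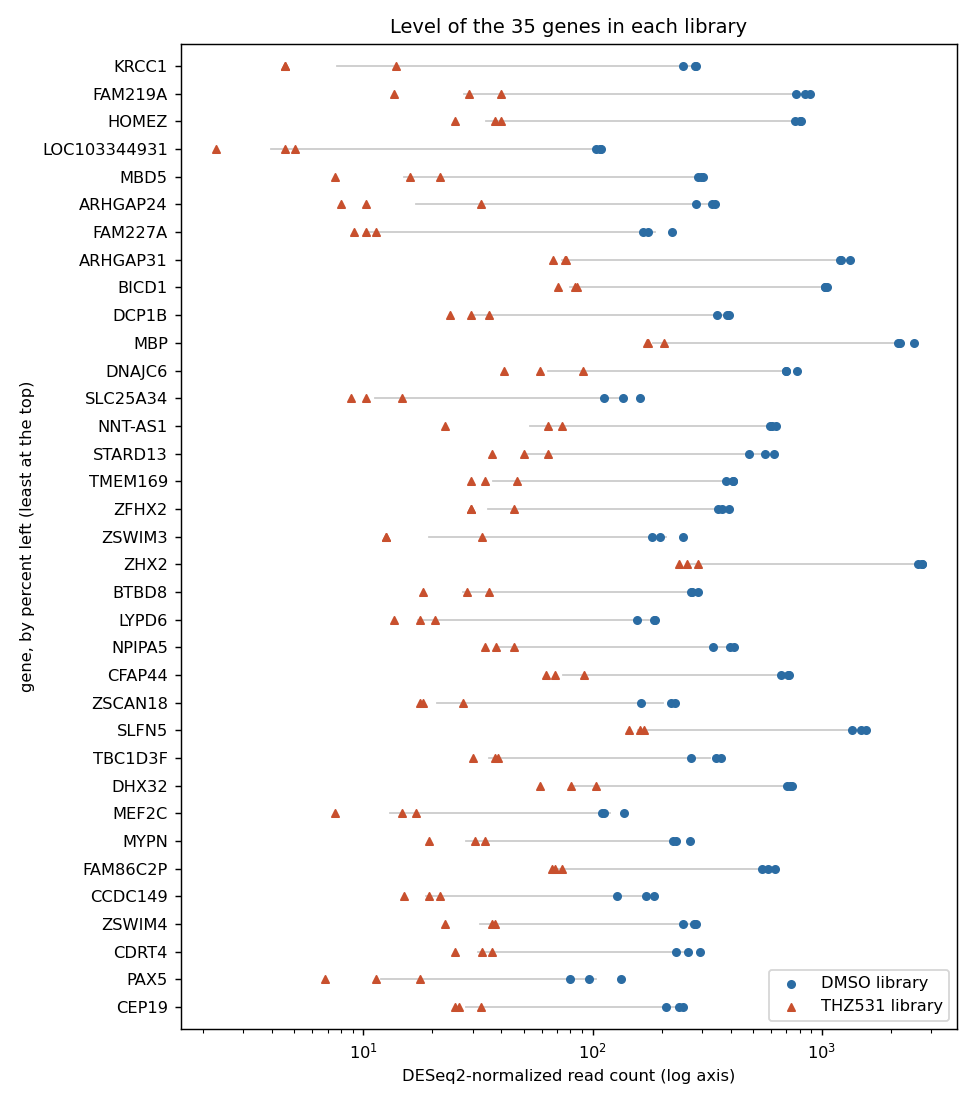
Normalized read count (log axis) of the 35 genes in the 3 DMSO libraries (circles) and the 3 THZ531 libraries (triangles), with a grey line from mean to mean; genes are ordered from the least percent left (KRCC1, 3.18%) to the most (CEP19, 12.45%). The triangles of every gene lie to the left of its circles, which the selection largely fixes.

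The limit on the ratio did not fall in a gap between genes. Just inside it lay CDRT4 with 12.34% left, PAX5 with 12.44% and CEP19 with 12.45%. Just outside lay the joined locus TRPV1 // SHPK with 12.57%, DET1 with 12.73% and PPP1R10 with 12.73%. PPP1R10, a regulatory subunit of protein phosphatase 1, was at 4310.0 in DMSO, above each of the 35. CHN2 and PRKXP1 met the ratio but had DMSO means of 94.8 and 94.4.

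**Figure D2:**
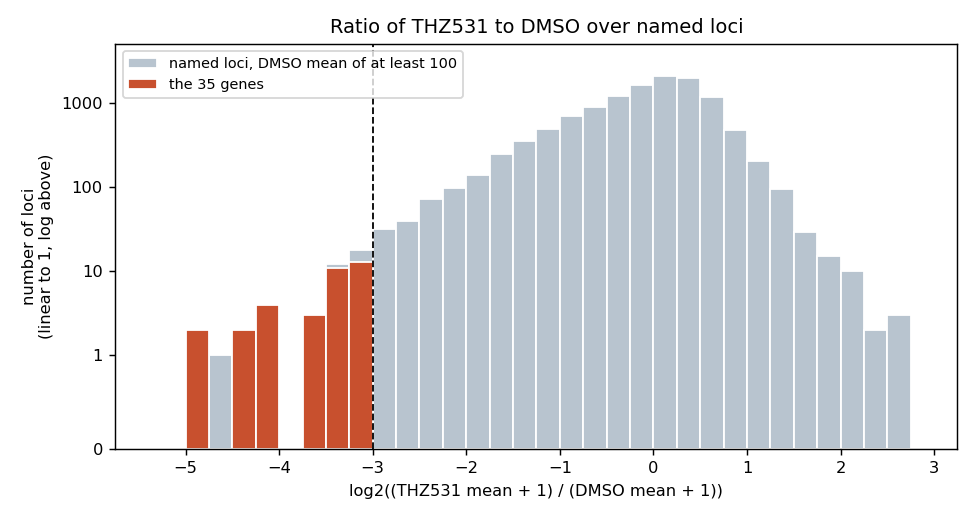
Number of named loci with a DMSO mean of at least 100 (grey, linear to 1 and log above) and of the 35 genes (orange) by log2 of (THZ531 mean + 1) over (DMSO mean + 1), in steps of 0.25; the dashed line marks the 8-fold limit. The step just left of the line holds 18 loci and the step just right of it 32, and the grey bars left of the line are the symbols left out.

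The genes chosen on fewer libraries were mostly also low in the libraries that had no part in the choice, though many missed the 8-fold limit there. With the libraries numbered 1 held out, 43 genes met the rule on the other libraries, and they had a median of 11.0% left in those held out. With number 2 held out, 35 genes had a median of 9.03% left, and with number 3 held out, 50 genes had a median of 12.54%. In the held-out libraries 25 of 43, 26 of 35 and 25 of 50 of these genes met the 8-fold limit itself, and at most 25% was left in 40, 35 and 42 of them. The highest held-out values were 56.6% for FGF7P6, 19.5% for CCDC122 and 33.9% for SLC16A6, none of which is among the 35. The numbers name libraries and do not pair them.

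The gene with the least left was KRCC1, which encodes a lysine-rich coiled-coil protein of little known function. It was at 283, 248 and 281 in the DMSO libraries and 13.9, 4.55 and 4.55 in the THZ531 libraries. The first THZ531 library stood above the other two, and the mean was 31.4-fold lower. FAM219A, whose function is also little known, was at 892, 773 and 847 in the DMSO libraries and 28.97, 39.8 and 13.7 in the THZ531 libraries, which is 29.4-fold lower. HOMEZ, a homeobox and leucine zipper factor, was at 761, 807 and 811 in the DMSO libraries and 25.2, 37.5 and 39.8 in the THZ531 libraries, which is 22.6-fold lower. These 3 genes lie on chromosomes 2, 9 and 14, all on the minus strand. Their lowest DMSO library was 17.9, 19.4 and 19.1 times their highest THZ531 library.

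The promoters of these 3 genes are shown because these genes had the least left of the whole set. Each is RefSeq sequence of GRCh38.p14 from 250 bases before to 50 bases after a start, 5′ to 3′, and capitals mark matches to the motifs searched (on either strand, overlaps sharing capitals).
KRCC1 (chr2:88055734-88056033, minus strand): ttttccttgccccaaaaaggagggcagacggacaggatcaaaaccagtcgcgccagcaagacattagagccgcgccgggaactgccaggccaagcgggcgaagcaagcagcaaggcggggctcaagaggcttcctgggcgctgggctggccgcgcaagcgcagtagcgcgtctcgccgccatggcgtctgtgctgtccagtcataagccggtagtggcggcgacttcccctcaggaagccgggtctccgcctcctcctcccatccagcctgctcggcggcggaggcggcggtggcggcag
FAM219A (chr9:34458521-34458820, minus strand): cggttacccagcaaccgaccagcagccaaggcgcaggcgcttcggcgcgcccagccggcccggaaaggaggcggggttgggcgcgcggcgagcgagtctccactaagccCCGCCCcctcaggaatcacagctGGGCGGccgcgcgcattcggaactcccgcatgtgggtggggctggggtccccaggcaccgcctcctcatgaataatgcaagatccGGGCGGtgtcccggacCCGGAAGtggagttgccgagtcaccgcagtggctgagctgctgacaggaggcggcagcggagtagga
HOMEZ (chr14:23286083-23286382, minus strand): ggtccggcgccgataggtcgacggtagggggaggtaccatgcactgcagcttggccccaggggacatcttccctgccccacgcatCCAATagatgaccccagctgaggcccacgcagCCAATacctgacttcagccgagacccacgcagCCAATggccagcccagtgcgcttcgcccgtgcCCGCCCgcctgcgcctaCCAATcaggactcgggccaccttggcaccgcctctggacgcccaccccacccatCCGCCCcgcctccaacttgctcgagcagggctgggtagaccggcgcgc

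The motifs were the TATA box TATAAA, the CCAAT box, the GC box GGGCGG and the ETS core CCGGAAG. The HOMEZ promoter held the CCAAT box and the GC box, the FAM219A promoter the GC box and the ETS core, and the KRCC1 promoter none of the 4 motifs, so no motif was common to these genes. Of the 35 genes, 30 had a RefSeq promoter, and where a gene had several the promoter nearest to the annotated start was taken. In both comparison sets below every promoter of a gene was kept, so a gene with several counts more than once there. The GC box stood in 18 of 30 (60% of them), against 44.95% of all 35116 promoters and 67.01% of the 13722 promoters of named genes with a DMSO mean of at least 100. The CCAAT box stood in 11 (36.7% against 34.6% and 34.8%), the ETS core in 6 (20% against 10.3% and 17.4%) and the TATA box in 3 (10% against 11.5% and 5.91%). The number of CG dinucleotides in these 300 bases had a median of 18 in the 30 genes, 25 in the promoters of named genes at that level and 14 in all promoters. It ran from 2 in MYPN to 44 in MBP, so no single promoter type covered the set.

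Gene structure was not a criterion of the selection. It differed between the 35 genes and the named loci with a DMSO mean of at least 100. Those loci include the 35 genes and the symbols left out of them. Of the 35, 34 were matched to GENCODE v44, and LOC103344931 was not. The longest intron of a gene had a median of 18972 bases in these 34 genes, against 9073 over the named loci with a DMSO mean of at least 100. The first intron, looked at after the values were seen, had a median of 14940.5 bases against 4116. It was at least 10 kb in 22 of 34 genes (64.7% against 31.9%), and it was the longest intron of the gene in 23 of 34 (67.6% against 44.01%). The gene span as the file gives it had a median of 64441 bases against 30592.5, and it reached 100 kb in 16 of 35 (45.7% against 18.1%). The number of exons was close, with a median of 9.5 against 9, and summed exon length was 6972.5 against 5448.5 bases.

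Among the loci that were lower in THZ531, first introns were longer in the classes of larger fold. The median was 14940.5 bases in the 8-fold class, 8384.5 from 4- to 8-fold lower, 4507.5 from 2- to 4-fold lower, 3926 up to 2-fold lower and 4067 in loci that were higher. Over the 2765 loci of that DMSO level that were called decreased, the median was 4572, close to that of all loci. The longest intron had medians of 18972, 13993.5, 9726, 8963 and 8887.5 bases over the same classes in the same order. The longest first introns among the 35 were in MBD5 (157015 bases), STARD13 (117847), BICD1 (108702), LYPD6 (106915) and ARHGAP24 (94962). The shortest were in SLC25A34 (1065), TBC1D3F (1428), FAM86C2P (2153), CEP19 (3201) and ZSWIM4 (3918), so a long first intron was not a feature of every gene. The file's span of SLC25A34 (738705 bases) was far beyond its annotated gene (5135 bases). In the annotation the median span was 60243.5 bases against 33220.5, and it reached 100 kb in 44.1% against 19.3%. With the left-out symbols kept in the set, these were 40005 bases and 36.6%. The first intron then had a median of 13752 bases and the longest intron 18574. The differences in structure were not tested.

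**Figure D3:**
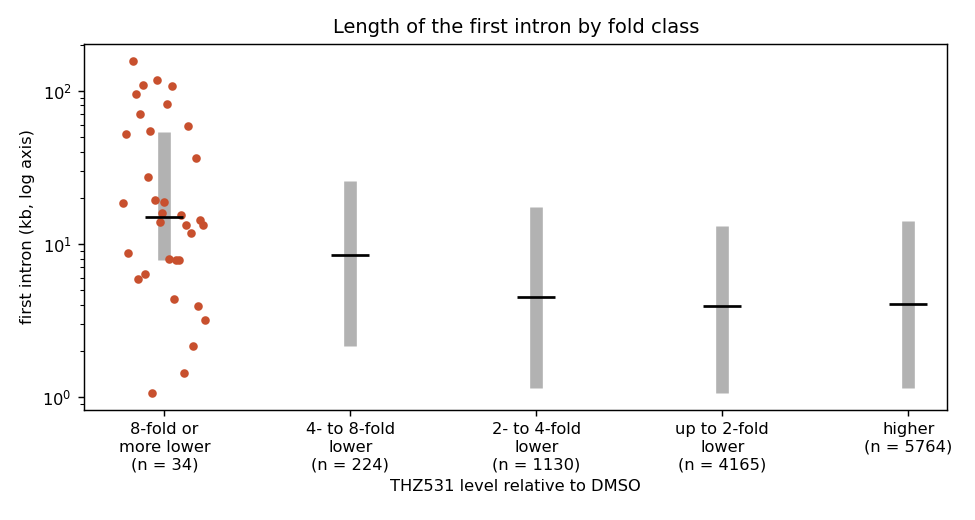
Length of the first intron in kb (log axis) by how far THZ531 lay below DMSO, for named loci with a DMSO mean of at least 100 and an intron; grey bars run from the lower to the upper quartile, black marks are medians and orange points are 34 of the 35 genes. The median is 14940.5 bases in the lowest class and between 3926 and 8384.5 in the other 4 classes. The first intron was looked at after the values were seen.

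The 35 genes were expressed at a low level before treatment, as were other loci that were lower in THZ531. Per kb of exon, which allows a comparison between genes, the DMSO level had a median of 81.2 normalized reads against 247 over the named loci with a DMSO mean of at least 100. It was 66.9 in the loci from 4- to 8-fold lower, 119 in those from 2- to 4-fold lower and 122 in all loci of that DMSO level called decreased, so a low level was not particular to the 35 genes. ZHX2 stood highest at 608 per kb, ahead of NPIPA5 at 252 and FAM219A at 221, and MEF2C was lowest at 10.2. Within a DMSO mean of 100 to 1000, the first intron had a median of 13359 bases in the 29 genes matched to the annotation. Over all loci in that range it was 4397. Level was not matched within the range, where the DMSO mean had a median of 286 in the set and 382 in all loci.

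The first AATAAA on the coding strand of the first intron was read for the same 3 genes, with 20 bases on each side, from hg38, 5′ to 3′, because this signal is where a transcript could end early. Capitals mark AATAAA.
KRCC1 (chr2:88053490-88053535, minus strand): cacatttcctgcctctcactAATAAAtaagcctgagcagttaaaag
FAM219A (chr9:34452047-34452092, minus strand): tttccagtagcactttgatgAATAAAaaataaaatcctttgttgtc
HOMEZ (chr14:23283934-23283979, minus strand): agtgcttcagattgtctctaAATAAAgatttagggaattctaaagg

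These AATAAA started after 2110, 6131 and 1953 bases of the intron. Of the 32 genes of the set with a first intron of at least 2000 bases, 19 held AATAAA in the first 2000 bases (59.4%), close to the 56.5% of 7355 such loci with a DMSO mean of at least 100. Over all introns of a gene the motif had a median of 0.951 per kb in the set against 0.704, and the median GC content of the introns was 43.2% against 44.3%. A match is a run of letters, and no use of a site was measured.

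Positions are given as in the file, on hg38. Among the 35 genes are 3 GTPase-activating proteins of the ARHGAP type, which switch small GTPases such as Rac and Cdc42 off and so act on the actin cytoskeleton. ARHGAP31 (chr3:119294373-119420714), active on Cdc42 and Rac1, was at 1212, 1324 and 1199 in the DMSO libraries and 76.8, 76.2 and 67.1 in the THZ531 libraries, 16.8-fold lower. The libraries of each group were close together. ARHGAP24 (chr4:85475150-86002667), a filamin-binding protein active on Rac, was at 341, 333 and 282 in the DMSO libraries and 32.7, 7.96 and 10.2 in the THZ531 libraries, 17.8-fold lower, with its first THZ531 library above the other two. STARD13 (chr13:33103137-33676795), also known as DLC2, was at 618, 566 and 482 in the DMSO libraries and 50.4, 36.4 and 63.7 in the THZ531 libraries, 10.9-fold lower.

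Among the 55 other expressed members of the ARHGAP-type family, 19 were decreased (34.5%, beside 23.7% of all named loci) and 3 increased (5.45%, beside 13.3%), with a median log2 fold change of −0.30. CHN2, a Rac-specific GAP, decreased with a log2 fold change of −4.32 ± 0.41 (SE), adjusted p = 1.21e-07 (limma, Benjamini-Hochberg). ARHGAP39 decreased by the same test with −2.47 ± 0.20 (SE), adjusted p = 1.92e-08. SYDE2 (0.71 ± 0.10 (SE), adjusted p = 1.34e-05) and ARHGAP11A (0.69 ± 0.04 (SE), adjusted p = 4.74e-10), which acts in mitosis, increased, by limma with Benjamini-Hochberg adjustment, but neither was called when libraries were scaled to the same total. ARHGAP22, the closest relative of ARHGAP24, decreased by 1.72 on the log2 scale. ARHGAP32 (0.51) and ARHGAP33 (0.26), related to ARHGAP31, and STARD8 (−0.17), related to STARD13, were not called, though ARHGAP32 was without DMSO library 1 (0.62) or THZ531 library 1 (0.64).

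A further 3 genes are homeobox factors that also carry zinc fingers or a leucine zipper. ZHX2, a transcriptional repressor, had the highest DMSO level of the set, with 2737, 2641 and 2740.0 in the DMSO libraries and 289.7, 238 and 259 in the THZ531 libraries, 10.3-fold lower. ZFHX2 was at 351, 395 and 368 in the DMSO libraries and 45.3, 29.6 and 29.6 in the THZ531 libraries, 10.4-fold lower, and HOMEZ is given above. The 8 other expressed loci of this kind did not share this: 4 were increased and 1 decreased, beside 13.3% and 23.7% of all named loci, and the median log2 fold change was 0.62. ADNP (0.76), ADNP2 (0.77), ZFHX4 (0.66) and ZEB1 (0.82) increased and ZEB2 (−0.61) decreased, and none of the 4 increases was called with libraries scaled to the same total or to RPL34. ZEB1 was also not called without DMSO library 2 (0.58), nor ZEB2 without THZ531 library 2 (−0.45). ZHX1 and ZHX3, the closest relatives of ZHX2, had log2 fold changes of 0.57 and −0.12 and were not called, though ZHX1 was without DMSO library 1 (0.597). This list was written after the values were seen.

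Vesicle traffic is the role of 4 genes. BICD1 (chr12:32106835-32383633), which links cargo to the dynein motor, was at 1031, 1028 and 1050.0 in the DMSO libraries and 70.5, 85.3 and 84.2 in the THZ531 libraries, 12.8-fold lower. Its paralogue BICD2 was instead increased, at 2908, 2836 and 2799 in DMSO and 4529, 4524 and 4771 in THZ531, with a log2 fold change of 0.69 ± 0.04 (SE), adjusted p = 1.05e-09 (limma, Benjamini-Hochberg), a call that was lost with libraries scaled to the same total. Of the 18 other expressed dynein cargo adaptors, 7 were decreased and 2 increased (38.9% and 11.1%, beside 23.7% and 13.3% of all named loci), with a median of −0.12, and BICDL1 (−2.04), BICDL2 (−1.06) and HAP1 (1.19) were among those called.

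DNAJC6 (chr1:65254462-65415871), or auxilin, which strips clathrin coats from vesicles with HSC70, was at 779.6, 699.6 and 695 in the DMSO libraries and 59.2, 40.9 and 91.01 in the THZ531 libraries, 11.2-fold lower. GAK, the auxilin that all tissues express, was at 1663, 1646 and 1774 in DMSO and 1628, 1608 and 1589 in THZ531, and its log2 fold change of −0.07 was not called. The 33 other expressed genes of the clathrin coat and its uncoating held 4 decreased (12.1%, beside 23.7% of all named loci) and 1 increased (3.03%, beside 13.3%), with a median of 0.07. EPN2 (−1.27) and SH3GL3 (−0.997) decreased and NECAP1 (0.68) increased, and NECAP1 was not called with libraries scaled to the same total. SH3GL3 was not called without DMSO library 2 (−0.89) or THZ531 library 1 (−0.52). BTBD8, linked to clathrin adaptors at synapses, was at 287, 271 and 268 in DMSO and 35.3, 18.2 and 28.4 in THZ531, 9.77-fold lower, and TBC1D3F, of the Rab GAP domain family, at 269.9, 365 and 344 in DMSO and 30.2, 38.6 and 37.5 in THZ531, 8.97-fold lower. TBC1D3F has near-identical copies whose reads may be split, and none of the other copies in the file was expressed.

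RNA is acted on by 2 of the genes. DCP1B (chr12:1940603-2005043), a cofactor of the decapping enzyme DCP2 in mRNA decay, was at 395, 349.8 and 386 in the DMSO libraries and 35.3, 29.6 and 23.9 in the THZ531 libraries, 12.4-fold lower. Its paralogue DCP1A was at 1111, 1058 and 1017 in DMSO and 995, 1132 and 1143 in THZ531, with a log2 fold change of 0.04 that was not called. Of the 21 other expressed decapping genes, 2 were decreased (9.52%, beside 23.7% of all named loci) and 1 increased (4.76%, beside 13.3%), with a median of 0.10. PNRC2 (−1.20) and NUDT16 (−0.89) decreased, and XRN1, the main cytoplasmic 5′ to 3′ exonuclease, increased with 1.17. DHX32, of the DEAH-box helicase family, was at 741, 726 and 704 in DMSO and 80.6, 59.1 and 104 in THZ531, 8.82-fold lower.

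MBD5 (chr2:148021091-148516971), a chromatin protein with a methyl-CpG-binding domain, was at 289.8, 303 and 298 in the DMSO libraries and 7.56, 21.6 and 15.9 in the THZ531 libraries, 18.6-fold lower. MBD6, its closest relative and like it a partner of the deubiquitinase complex PR-DUB, was decreased, with a log2 fold change of −0.84 ± 0.09 (SE), adjusted p = 5.89e-07 (limma, Benjamini-Hochberg). Of the 19 other expressed loci of these domains and this complex, 6 were decreased (31.6%, beside 23.7% of all named loci) and 1 increased (5.26%, beside 13.3%), with a median of −0.41. SETDB2 (−1.39) and 1 of the 2 BAZ2B loci (−0.999) decreased, and HCFC1 (0.76) increased, the latter not with libraries scaled to the same total.

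The other transcription factors of the set were low before treatment. MEF2C, a MADS-box factor of muscle, neurons and blood, was at 137, 109 and 112 in DMSO and 7.56, 17.1 and 14.8 in THZ531, 8.53-fold lower. PAX5, the factor of B cell identity, was at 96.9, 79.8 and 132 in DMSO and 17.6, 11.4 and 6.83 in THZ531, 8.04-fold lower, and its DMSO mean was the closest of all to the minimum. Without the DMSO library 3 or the THZ531 library 2 or 3, PAX5 no longer met the rule. The leukocyte markers PTPRC and CD14 had DMSO means of 33.6 and 119. ZSCAN18, a SCAN-domain zinc finger factor, was at 229, 219 and 163 in DMSO and 17.6, 18.2 and 27.3 in THZ531, 9.29-fold lower. Among the other MEF2 and PAX factors, a list written after the values were seen, 3 of 7 expressed were decreased and 2 increased, beside 23.7% and 13.3% of all named loci. PAX2 (−1.86) and MEF2B (−1.19) decreased and MEF2D (0.79) and PAX6 (0.71) increased, and both increases were lost with libraries scaled to the same total or to RPL34. The remaining decreased factor is PAX8, which met the ratio and was left out of the set only by its symbol. The selection largely fixes the call of PAX8, so that call is no result about this list.

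ZSWIM3 and ZSWIM4 carry a SWIM zinc finger, and members of this family serve as adaptors of cullin ubiquitin ligases. ZSWIM3 was at 248, 198 and 182 in DMSO and 12.6, 32.96 and 12.5 in THZ531, 10.3-fold lower, with its second THZ531 library above the others. ZSWIM4 was at 249, 278 and 284 in DMSO and 22.7, 36.4 and 37.5 in THZ531, 8.18-fold lower. ZSWIM9, which missed the ratio with 13.99% left, decreased with a log2 fold change of −2.92. ZSWIM1 (−0.65) also decreased, but not without DMSO library 3 (−0.58) or THZ531 library 3 (−0.57), while ZSWIM5, ZSWIM6, ZSWIM7 and ZSWIM8 were not called, with values from −0.53 to 0.22.

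CFAP44, a protein of the cilium and flagellum axoneme, was at 719, 712 and 663 in DMSO and 91.9, 62.5 and 68.3 in THZ531, 9.29-fold lower. CEP19, a centriole protein needed to form cilia, was at 238, 248 and 209 in DMSO and 32.7, 26.1 and 25.03 in THZ531, 8.03-fold lower. Of the 36 other expressed cilium and centriole genes, 12 were decreased (33.3%, beside 23.7% of all named loci) and 1 increased (2.78%, beside 13.3%), with a median of −0.43. CFAP43, the partner of CFAP44, decreased with a log2 fold change of −2.03 ± 0.46 (SE), adjusted p = 0.00104 (limma, Benjamini-Hochberg), from a low DMSO level of 40.2. IFT46 (−1.23) decreased and CFAP20 (0.76) increased, the latter not with libraries scaled to the same total.

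A group of 5 genes encodes membrane, carrier or structural proteins. MBP (chr18:76978833-77132783), whose products include myelin basic protein, was the second highest of the set, at 2139.6, 2191 and 2519 in the DMSO libraries and 175, 173 and 205 in the THZ531 libraries, 12.3-fold lower. TMEM169, a transmembrane protein, was at 410.4, 382 and 409 in DMSO and 46.6, 34.1 and 29.6 in THZ531. LYPD6, of the Ly6 family, was at 187, 186 and 156 in DMSO and 17.6, 20.46 and 13.7 in THZ531. SLC25A34, of the mitochondrial carrier family, was at 112, 136 and 161 in DMSO and 8.82, 14.8 and 10.2 in THZ531, and MYPN, a protein of the muscle sarcomere, at 230.2, 225 and 267 in DMSO and 34.01, 19.3 and 30.7 in THZ531. In these last 4 genes the fold was between 8.34 and 11.2.

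SLFN5 (chr17:35243069-35273655), an interferon-induced Schlafen protein, was among the 5 genes with a DMSO mean over 1000, at 1553, 1487 and 1361 in the DMSO libraries and 145, 167 and 162 in the THZ531 libraries, 9.24-fold lower. Its relatives differed in their values and calls. SLFN13 decreased to 47.05%, with a log2 fold change of −1.09 ± 0.13 (SE), adjusted p = 1.61e-06 (limma, Benjamini-Hochberg), whereas SLFN11 (−0.26) and SLFN12 (0.33) were not called. Of the 19 expressed closest relatives of the 35 genes, 5 were decreased and 1 increased (26.3% and 5.26%), with a median of −0.12, beside the 23.7% and 13.3% of all named loci. FAM219B, the paralogue of FAM219A, was among the decreased with −0.82.

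**Figure D4:**
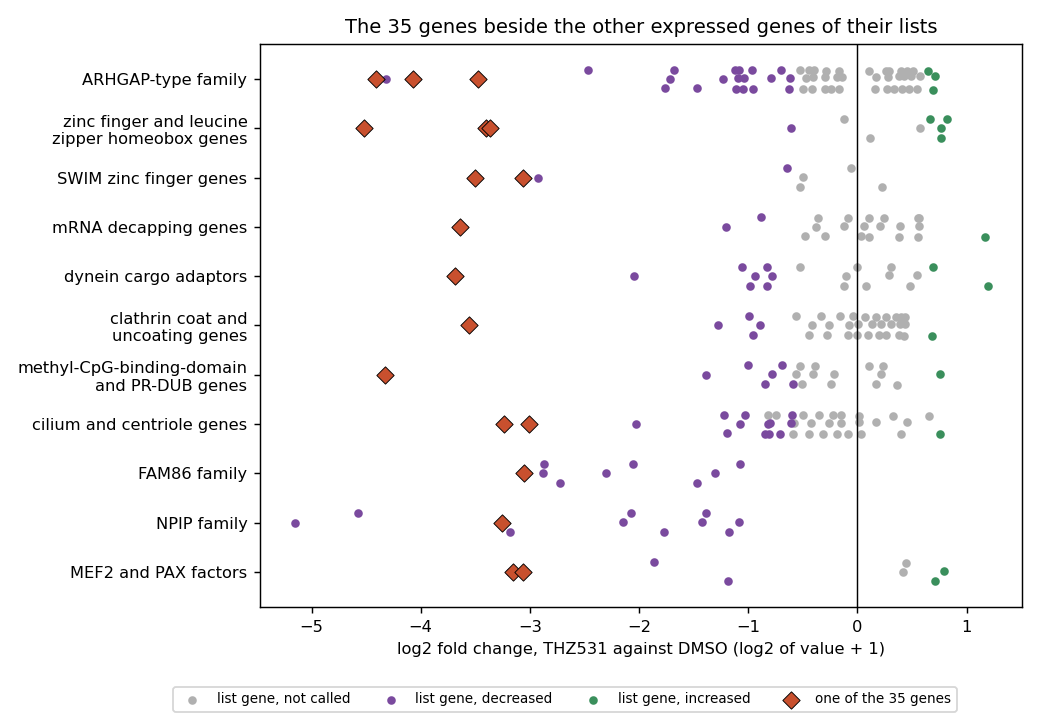
Log2 fold change of THZ531 against DMSO on the log2(value + 1) scale for the 35 genes that belong to a list (diamonds) and the other expressed genes of each list (circles, coloured by call). The diamonds lie at −3.01 or lower, which the selection largely fixes. The circles of most lists lie around 0, and those of the FAM86 and NPIP families all lie at −1.08 or lower.

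Multicopy families were the exception to this scatter. FAM86C2P, a pseudogene of a methyltransferase family, was at 551, 581 and 623 in DMSO and 66.8, 73.9 and 68.3 in THZ531, 8.30-fold lower. All 8 other expressed FAM86 loci were decreased under each scaling, beside 23.7% (main fit) to 43.8% (scaled to RPL34) of all named loci. Their median log2 fold change was −2.18, and FAM86EP (−2.87) and FAM86B3P (−2.88) were the lowest. NPIPA5, of the nuclear pore complex interacting protein family, was at 412, 335 and 398 in DMSO and 37.8, 34.1 and 45.5 in THZ531, 9.54-fold lower. All 10 other expressed NPIP loci, a list written after the values were seen, were decreased under each scaling, beside the same shares of all named loci. Their median was −1.92, with values from −5.15 (NPIPA3) to −1.08 (NPIPB12). NPIPA3 was near the floor, with means of 47.5 in DMSO and 0.379 in THZ531. NPIPA2 and NPIPB6 were also low in THZ531, with means of 3.03 and 2.44. Copies within such families can be near identical and may share reads, which was not tested. The value of a single copy is therefore uncertain, and the loci cannot be taken as independent.

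NNT-AS1, a long noncoding RNA, was at 594, 605 and 630.3 in DMSO and 64.2, 73.9 and 22.8 in THZ531, 11.2-fold lower, with THZ531 library 3 below the others. LOC103344931, which overlaps VTI1A, was at 104, 108 and 109 in DMSO and 5.04, 4.55 and 2.28 in THZ531, 21.8-fold lower, on 10 reads summed over the THZ531 libraries. The remaining genes are of little known function. FAM227A was at 222, 175 and 167 in DMSO and 11.3, 9.09 and 10.2 in THZ531, 16.9-fold lower. CCDC149, a coiled-coil protein, was at 186, 172 and 128 in DMSO and 15.1, 19.3 and 21.6 in THZ531, and CDRT4, named for its place in the duplicated region of Charcot-Marie-Tooth disease, at 262, 232 and 294 in DMSO and 25.2, 32.96 and 36.4 in THZ531, with folds of 8.28 and 8.10.

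Loci next to these genes were also examined. For 9 of the 35 genes, 10 named loci overlapped the gene or started within 1000 bases of its start on the other strand, a comparison added after the values were seen. Of these, 3 were decreased, 1 increased and 6 not called, shares near the 23.7% and 13.3% of all named loci. ORC4, a subunit of the origin recognition complex that starts head-to-head with MBD5, was at 2137, 2207 and 2398 in DMSO and 3636, 3741 and 3456 in THZ531 and increased, with a log2 fold change of 0.68 ± 0.05 (SE), adjusted p = 1.19e-08 (limma, Benjamini-Hochberg), a call lost with libraries scaled to the same total. NNT, which starts head-to-head with NNT-AS1, was at 1901, 1889 and 1718 in DMSO and 2102, 1918 and 2185 in THZ531. BCCIP, which overlaps DHX32, was at 5002, 5238 and 5268 in DMSO and 6547, 6442 and 6506 in THZ531, and ACOT8, head-to-head with ZSWIM3, at 613, 633 and 554 in DMSO and 581, 550.2 and 634 in THZ531. These 3 were not called, nor were THTPA (−0.38) beside ZFHX2, BOC (−0.44) beside CFAP44 and FANK1 (−0.64) beside DHX32.

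The 3 decreased neighbours were VTI1A (−0.85), which holds LOC103344931, CBY1 (−1.12), head-to-head with FAM227A, and ARHGAP31-AS1 (−2.54), antisense to ARHGAP31. The setting by which reads were assigned to a strand is not given in the sources used here, so overlapping antisense pairs may share reads. The file's spans were used for loci inside the 35 genes, and those of SLC25A34 and STARD13 reach far beyond the annotated genes. Some of these loci may therefore lie outside the gene. Inside the spans of the 35 genes lay 39 loci without a symbol, 26 of them on the same strand by the order of identifiers, and none reached the expression minimum. Without that minimum, 14 same-strand loci with any read were fitted and 3 were decreased and 3 increased. Of all 26960 loci fitted in this way, 4912 were decreased and 3448 increased. Inside the other named genes with a DMSO mean of at least 100 lay 1240 expressed loci without a symbol, on either strand. Of these, 243 were decreased and 508 increased, beside 4197 and 2751 of all 17568 expressed loci. They met the expression minimum and lay on either strand, so they cannot be set against the 14 same-strand loci fitted without that minimum.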

How the data were processed

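RNA-seq was analysed for OVCAR3 cells given DMSO (3 libraries) or 200 nM THZ531 for 6 h (3 libraries). The authors aligned polyA libraries (STAR, hg38), obtained gene counts from featureCounts under FAST DB annotation, and deposited a signal per gene, the read count divided by a DESeq2 size factor, with no correction for length. The STAR version is 2.7.5a in the submitters' processing notes. The values were whole multiples of 1 read in 100% of cases (tolerance 0.1 read), so reads were recovered, with size factors of 0.794 to 1.26.

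Loci were taken as expressed from a value of 10 upwards in 3 or more libraries (17568 loci, 15278 named). Log2(value + 1) was tested with limma 3.58.1 in R 4.3.3, without covariates, and a call needed a change of 1.5-fold or more with p no higher than 0.05 before adjustment. A fold change on this scale understates that of low genes. Adjusted p-values follow Benjamini-Hochberg. edgeR 4.0.16 and DESeq2 1.42.0 were run on the recovered reads, and all 3 tools were tested on simulated data. The 35 genes and the gene lists were chosen with earlier results of these data known, and 5 lists (SWIM, homeobox, NPIP, TBC1D3, MEF2 and PAX), the neighbours, the motif searches and the first intron after the values were seen. Named were all 35 genes, the nearest genes on each side of the limits, in each list the 2 lowest and 2 highest of the called genes, and expressed close relatives; other list genes were named after their values were seen. Introns come from GENCODE v44 on hg38 and promoters from RefSeq (GRCh38.p14). RPL34, CDK12 and CDK13 had log2 fold changes of 0.49, 0.39 and −0.02. Alternatives covered pseudocounts, minimums, thresholds, scalings, tools, a replicate block and each library left out. A neighbour of the limits and a marker are not reported here. Deviations of libraries with the same number correlated at 0.00168, 0.0186 and −0.0393 between groups, so the numbers were not taken to pair them.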

Additional observations from a re-analysis of the deposited data

How the results depend on the processing

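The main limits are 3 libraries per group, few reads per gene in THZ531, and the scaling, which assumes that most genes keep their level. Scaling to the same total moved the median log2 fold change of all loci by −0.24 and scaling to RPL34 by −0.49, and the share of decreased among called loci from 60.4% to 77.3% and 87.5%. The rule then chose 64 and 102 genes, all 35 among them. It chose 20 with a pseudocount of 10, 54 with a DMSO mean of at least 50, and 14 when the highest THZ531 library was set against the lowest DMSO library, and 33 to 48 without 1 library. Left out in turn, single libraries removed 8 of the 35 genes at least once (CCDC149, CDRT4, CEP19, DHX32, MEF2C, MYPN, PAX5 and ZSWIM4). No member's log2 fold change turned in direction, and all lay at −2.37 or lower under each alternative that could be fitted; LOC103344931 missed the minimum without any 1 DMSO library.

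Regulated loci numbered 6948, 4042 at a fold change of 2, 6453 to 6631 without 1 library, and 6918 with the replicate block, which, of the 8 lists it was run on, changed the count of decreased genes in the cilium and centriole genes (11 in place of 12); it was not counted for the SWIM, homeobox, NPIP, TBC1D3, and MEF2 and PAX lists. Scaled to the same total, 32.2% of all named loci were decreased, in place of 23.7%. Decreased genes then numbered 5 in the decapping list, 7 in the clathrin list and 11 among the methyl-CpG-binding-domain and PR-DUB genes. They numbered 26 in the ARHGAP-type family, 8 among the dynein adaptors, 7 among the closest relatives and 18 among the cilium and centriole genes. Scaled to RPL34, 43.8% of all named loci were decreased. Decreased genes then numbered 33 in the ARHGAP-type family, 7 in the decapping list, 11 in the clathrin list and 10 among the dynein adaptors. They numbered 12 among the methyl-CpG-binding-domain and PR-DUB genes, 9 among the closest relatives and 26 among the cilium and centriole genes. At a fold change of 2 they were 1, 1 and 1 in the decapping, clathrin and methyl-CpG-binding-domain lists, 2 among the dynein adaptors, 3 among the relatives and 5 among the cilium and centriole genes. Without 1 library the counts ran from 17 to 19 (ARHGAP-type), 2 to 2 (decapping), 7 to 7 (dynein adaptors), 3 to 4 (clathrin), 5 to 7 (methyl-CpG-binding-domain), 5 to 6 (relatives), 8 to 8 (FAM86) and 10 to 11 (cilium). Loci inside the 35 genes had 6 calls among 14 fitted without the minimum, beside 8360 among all 26960 loci. The median span was 64441 bases in the file and 60243.5 in the annotation. With the left-out symbols kept these were 50063.5 and 40005. The file's median span over all expressed named loci was 27951. Chosen after seeing the data, the 3 scalings gave medians left in held-out libraries of 10.3% to 11.4%, against 11.2%.

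Among other named genes, direction turned under RPL34 scaling for ARHGAP33 (−0.23), BCCIP (−0.16), CDK12 (−0.11), DCP1A (−0.46), MEF2A (−0.0722), NNT (−0.32), PAX9 (−0.0434), SLFN12 (−0.16), ZFHX3 (−0.38) and ZSWIM5 (−0.23), and under the same total for DCP1A (−0.21), NNT (−0.0716) and ZFHX3 (−0.12). Without 1 library it turned for ACOT8 (−0.0848 to 0.0184 over the libraries left out), STARD8 (−0.446 to 0.291) and ZSWIM8 (−0.104 to 0.00984). The cause of these changes was not tested beyond the construction of each alternative.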
